A study of Oryza sativa Japonica Group with 8 samples.

Results

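FRIZZY PANICLE (FZP), 4 AP2-type genes (SNB, OsIDS1, SHAT1 and RSR1) and the TOPLESS-like corepressor ASP1 were followed in young rice inflorescences of an osg1l2 mutant and of its wild type. The genes were chosen by their RAP identifiers, the locus names of the rice annotation project, and all 6 were found among the 37859 genes of the per-library expression table. The RNA came from Oryza sativa Japonica Group plants of the cultivar Nipponbare, in 4 libraries labelled osg1l2 single mutant and 4 labelled wild type control. All plants grew in long days (16 h light at 28°C, 8 h dark at 26°C, 70% humidity) and were sampled after 12 days in short days with 12 h of light. The labels describe the tissue as early meristems rich in PBMs and ePBM/Ams, where PBM is the usual short form of primary branch meristem and AM of axillary meristem. The sources used here do not give the mutant allele, the number of lines behind it or whether plants were pooled. The 4 replicates of a genotype are called independent in the design text, but what was kept separate is not said, and the spread that p-values measure is that between libraries. Neither the targeted gene nor markers of the tissue could be checked, because the identifiers were not paired with gene names in the sources used here beyond the 6 genes described.

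In the grass inflorescence, branch meristems give rise to spikelet meristems, which in turn become floral meristems. FZP is an ERF-type transcription factor that stops axillary meristems from forming within the spikelet and so allows floral identity to be set. SNB and OsIDS1 are AP2 transcription factors that control the passage from spikelet to floral meristem, SHAT1 is an AP2 factor needed for the abscission zone below the grain, and RSR1 is an AP2 factor first known as a repressor of starch synthesis genes in the seed. AP2 genes of this type are known targets of the microRNA miR172. ASP1 is a corepressor of the TOPLESS family, proteins that DNA-binding repressors recruit to silence their targets, and its loss disturbs panicle branching and spikelet form. OsG1L2 is an ALOG protein, a plant nuclear factor, and by the title of the series it takes part in inflorescence branching.

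Expression is given as FPKM, fragment abundance relative to gene model length and library size, as the authors scaled it. Because FPKM is per length, levels of different genes can be set side by side, as far as the authors' estimate of FPKM holds. The summed FPKM lay between 218558 and 231675 in the wild type libraries and between 213940 and 221906 in the osg1l2 libraries, and the sequencing depth is unknown. On the second principal component of all tested genes, wild type replicate 2 lay at -28.4 and the remaining wild type libraries at 4.87 to 10.8. Results for the 6 genes are therefore also given without it where a call is made. In bulk tissue, fewer cells expressing a gene and less RNA per cell cannot be told apart.

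The 6 genes spanned the whole range of expression, from listed at 0 to the most abundant few percent of genes. In wild type the order of mean levels was ASP1, SNB, RSR1, SHAT1, OsIDS1 and FZP. In osg1l2 it was ASP1, SNB, SHAT1, RSR1, OsIDS1 and FZP. ASP1, SNB and FZP were clear of their neighbours in every library. The 3 genes in the middle were close to each other: their 8 values each ran from 1.39 to 2.21 FPKM for OsIDS1, from 1.85 to 2.57 FPKM for SHAT1 and from 1.66 to 2.92 FPKM for RSR1. OsIDS1 and SHAT1, next to each other in wild type, had overlapping ranges there (1.41 to 2.21 and 1.85 to 2.40 FPKM), and so did SHAT1 and RSR1 (2.30 to 2.92 FPKM). In osg1l2 RSR1 (1.66 to 1.81 FPKM) overlapped OsIDS1 (1.39 to 1.90 FPKM) but not SHAT1 (1.90 to 2.57 FPKM).

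**Figure D1:**
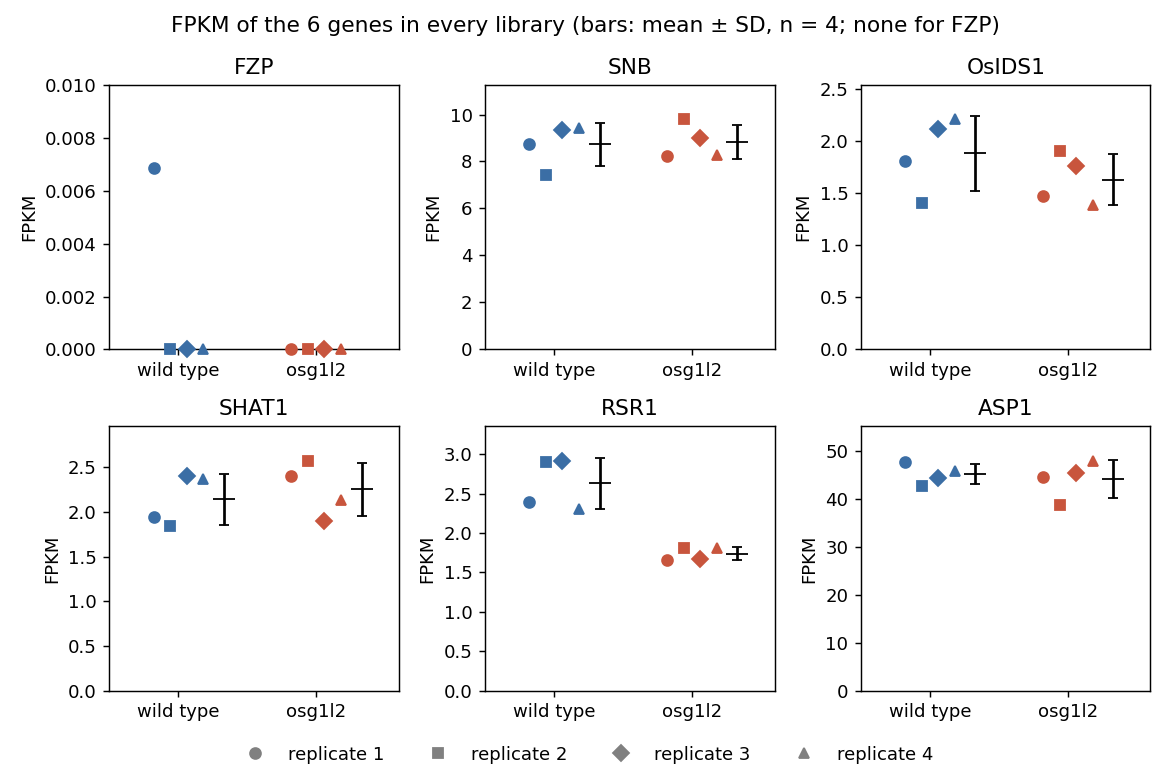
FPKM (vertical axes, each from 0) of FZP, SNB, OsIDS1, SHAT1, RSR1 and ASP1 in each wild type library (blue) and osg1l2 library (red), with a symbol for each replicate number and bars for the mean ± SD of 4 libraries, except for FZP. RSR1 is the gene whose genotypes do not overlap, with wild type at 2.30 to 2.92 and osg1l2 at 1.66 to 1.81 FPKM, and FZP is above 0 in wild type replicate 1 alone.

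FZP, which sets floral identity within the spikelet, was listed at or near 0 throughout. Its identifier, Os07g0669500 on chromosome 7, was listed at 0 FPKM in 7 of the 8 libraries and at 0.00687 FPKM in wild type replicate 1. An exact 0 can be a failed estimate, and 5317 genes (14.0% of the table) were listed at 0 in all 8 libraries. A total of 7125 genes (18.8%) were, like FZP, under 0.01 FPKM in every library. The mean of FZP lay below the minimum of 1 FPKM set for the test, so it was not among the tested genes and no fold change is given. The authors' deposited table gives FZP q = 1. Whether osg1l2 alters FZP could therefore not be assessed in these libraries.

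The other 5 genes passed the level filter, and of these only RSR1 differed between the genotypes in limma on log2(FPKM + 1) with Benjamini-Hochberg adjustment over 18254 genes. That count of 1 among 5 stands beside 1.93% of all tested genes called in either direction with 1.03% called as lower and 0.898% called as higher in osg1l2 (188 and 164 genes). This balance depended on the scaling, with 138 lower and 211 higher genes after median-of-ratios rescaling and 130 and 210 after quantile normalization; RSR1 was called as lower under both. The log2 fold changes of the 5 genes, osg1l2 over wild type, had a median of -0.035, and all tested genes had a median of -0.037. With 5 genes picked by name, the count describes RSR1 and says nothing of the group.

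SNB was the most abundant of the AP2-type genes and did not pass the test between genotypes. Its identifier is Os07g0235800, on chromosome 7, and it exceeded between 81.9% and 86.2% of all genes in a library. The wild type libraries held 8.75, 7.41, 9.35 and 9.41 FPKM for replicates 1 to 4, and the osg1l2 libraries held 8.24, 9.79, 9.02 and 8.28 FPKM. The lowest value was that of wild type replicate 2 and the highest that of osg1l2 replicate 2, and the genotypes overlapped. Wild type averaged 8.73 ± 0.926 FPKM and osg1l2 8.83 ± 0.734 FPKM (SD, n = 4 each). On the log2(FPKM + 1) scale the fold change was 0.017 with a 95% interval of -0.17 to 0.20 (limma adjusted p = 0.93), and an exact two-sided permutation test of the 4 against 4 libraries gave p = 0.886.

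OsIDS1, which acts with SNB in the spikelet, had the lowest mean of the 4 AP2-type genes in both genotypes and did not pass the test either. Its identifier is Os03g0818800, on chromosome 3. Wild type replicates 1 to 4 held 1.80, 1.41, 2.11 and 2.21 FPKM, and osg1l2 replicates 1 to 4 held 1.47, 1.90, 1.76 and 1.39 FPKM. The wild type libraries kept the same order for OsIDS1 as for SNB, with replicate 4 highest and replicate 2 lowest in both genes, and the genotypes overlapped. Wild type averaged 1.88 ± 0.361 FPKM and osg1l2 1.63 ± 0.242 FPKM (SD, n = 4 each), 13.4% less. The log2 fold change of -0.13 had a 95% interval of -0.37 to 0.11 (limma adjusted p = 0.54; exact two-sided permutation p = 0.314). The estimate leaned on single libraries, at -0.21 without wild type replicate 2 (limma adjusted p = 0.20) and -0.074 without wild type replicate 4 (limma adjusted p = 0.79). This was the widest interval of the 5 genes, and it leaves room for a fall nearly as large as that estimated for RSR1.

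SHAT1, the abscission zone factor, was detected in every library of these branch-stage meristems at a low level. Its identifier is Os04g0649100, on chromosome 4. The wild type libraries held 1.94, 1.85, 2.40 and 2.37 FPKM for replicates 1 to 4, and the osg1l2 libraries held 2.41, 2.57, 1.90 and 2.13 FPKM. Both genotypes had libraries near 1.9 and libraries near 2.4, so their values were interleaved. The average was 2.14 ± 0.289 FPKM in wild type and 2.25 ± 0.298 FPKM in osg1l2 (SD, n = 4 each). The log2 fold change was 0.051 with a 95% interval of -0.15 to 0.25 (limma adjusted p = 0.80; exact two-sided permutation p = 0.600).

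RSR1, the AP2 factor known from starch synthesis in the seed, was lower in every osg1l2 library than in any wild type library. Its identifier is Os05g0121600, on chromosome 5. Wild type replicates 1 to 4 held 2.39, 2.90, 2.92 and 2.30 FPKM, and osg1l2 replicates 1 to 4 held 1.66, 1.81, 1.67 and 1.81 FPKM. The lowest wild type value lay above the highest osg1l2 value, and the osg1l2 libraries were close together, the highest at 1.09 times the lowest. Complete separation of this kind was seen for 11.8% of all tested genes, and for 7.69% with osg1l2 lower. The mean fell by 34.0%, from 2.63 ± 0.328 FPKM in wild type to 1.74 ± 0.0821 FPKM in osg1l2 (SD, n = 4 each). The log2 fold change on the log2(FPKM + 1) scale was -0.40 with a standard error of 0.075 and a 95% interval of -0.57 to -0.24 (limma adjusted p = 0.032). That scale understates the change of a gene this low, and with a pseudocount of 0.1 in place of 1 the log2 fold change was -0.56 (limma adjusted p = 0.030). Of all 18254 genes ordered by log2 fold change, RSR1 stood at place 424 from the lowest, and the called lower genes had a median of -0.44. The exact two-sided permutation test gave p = 0.0286, the smallest value that 4 against 4 libraries allow. This value follows from the complete separation and adds nothing to it, and it was not adjusted over the genes described.

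The adjusted p of RSR1 lay close to the threshold of 0.05. With each library left out in turn it stayed under 0.05 without wild type replicate 2 (0.040) and wild type replicate 4 (0.039), but was above it without wild type replicate 1 (0.061) or 3 (0.088) and without osg1l2 replicate 1 (0.10), 2 (0.062), 3 (0.084) or 4 (0.062). The log2 fold change stayed between -0.45 and -0.37 in these 8 fits, and with no filter on low values the limma adjusted p was 0.053. In the authors' deposited table RSR1 has a log2 fold change of -0.53 with q = 0.0024, where 2.02% of all entries have q under 0.05, 1.14% with osg1l2 lower. That q is the smallest in the authors' deposited table and is shared by 442 entries. Both results rest on the same libraries, so neither is independent of the other.

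**Figure D2:**
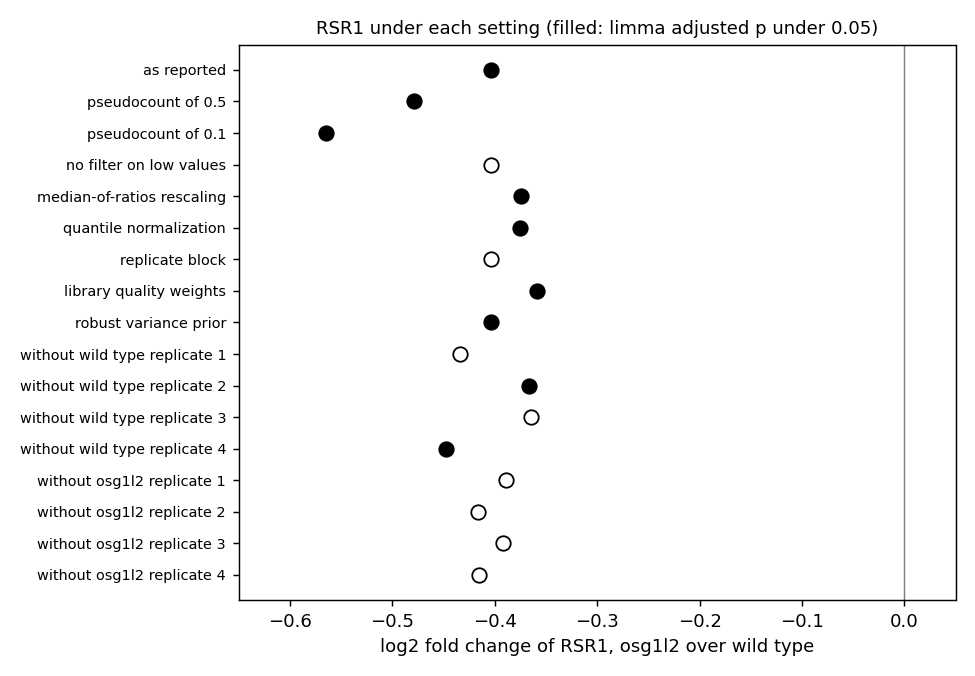
Log2 fold change of RSR1, osg1l2 over wild type (horizontal axis), as reported and under each of 16 alternative settings (rows), with filled points where the limma adjusted p is under 0.05 and open points where it is not. All points lie between -0.56 and -0.36, and 8 of the 16 alternatives are filled.

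ASP1, the TOPLESS-like corepressor, was the most abundant of the 6 genes in every library and did not pass the test. Its identifier is Os08g0162100, on chromosome 8, and it ranked between place 687 and place 923 from the top of all genes in a library. Wild type replicates 1 to 4 held 47.8, 42.9, 44.5 and 45.8 FPKM, and osg1l2 replicates 1 to 4 held 44.7, 38.8, 45.4 and 48.1 FPKM. The lowest and the highest value both belonged to osg1l2 libraries, replicates 2 and 4, which bracketed all wild type values. The average was 45.3 ± 2.10 FPKM in wild type and 44.2 ± 3.92 FPKM in osg1l2 (SD, n = 4 each). The log2 fold change was -0.035 with a 95% interval of -0.19 to 0.12, the narrowest of the 5 genes (limma adjusted p = 0.82; exact two-sided permutation p = 0.686).

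**Figure D3:**
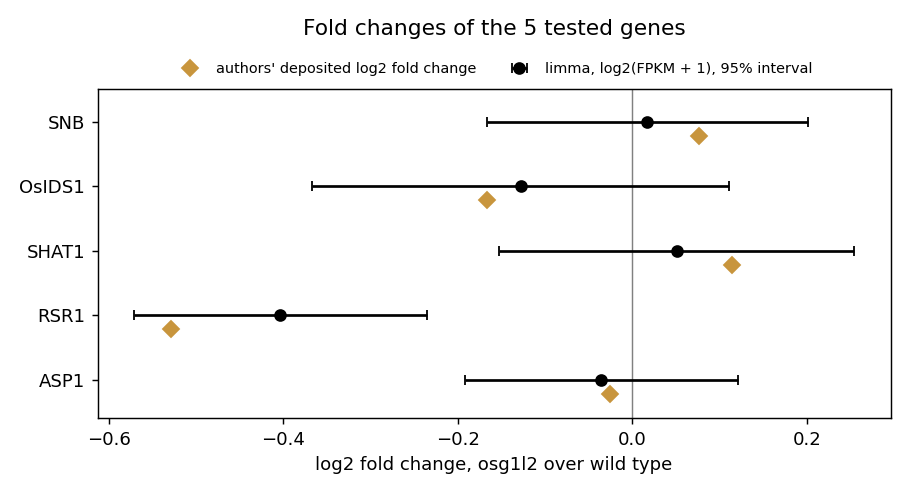
Log2 fold change, osg1l2 over wild type (horizontal axis), of SNB, OsIDS1, SHAT1, RSR1 and ASP1, with black points and 95% intervals from limma on log2(FPKM + 1) and diamonds for the log2 fold change in the authors' deposited table. The RSR1 interval, -0.57 to -0.24, lies wholly below 0, and the other 4 intervals include 0.

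The authors' deposited table ordered the 5 genes in the same way. For the genes other than RSR1 the authors' deposited table gives log2 fold changes of 0.077 for SNB (q = 0.89), -0.17 for OsIDS1 (q = 0.74), 0.11 for SHAT1 (q = 0.83) and -0.025 for ASP1 (q = 0.98). Its genotype values carry no unit and were higher than the mean FPKM, by 1.46 times for ASP1 and 2.31 times for SHAT1 in wild type. This factor differed between genes, so levels, shares and ratios between genes hold for the FPKM values alone. Levels from the authors' deposited table are therefore not set beside the FPKM here.

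The makeup of AP2-type expression was examined within libraries, where the scaling between libraries cancels. The summed FPKM of SNB, OsIDS1, SHAT1 and RSR1 was 15.4 ± 1.45 in wild type and 14.5 ± 1.13 in osg1l2 (SD, n = 4 each). SNB made up 56.7% ± 1.92 (SD, n = 4) of that sum in wild type and 61.1% ± 1.29 (SD, n = 4) in osg1l2. RSR1 made up 16.1%, 21.4%, 17.4% and 14.1% in wild type replicates 1 to 4 and 12.0%, 11.2%, 11.7% and 13.3% in osg1l2 replicates 1 to 4. Thus RSR1 held the second largest share in 3 of 4 wild type libraries and a smaller share than SHAT1 in all 4 osg1l2 libraries. OsIDS1 held 12.2% ± 1.30 in wild type and 11.2% ± 0.932 in osg1l2, and SHAT1 13.9% ± 0.718 and 15.6% ± 1.78 (SD, n = 4 each). Shares of one sum are tied to each other, so a lower share of one gene raises the others.

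**Figure D4:**
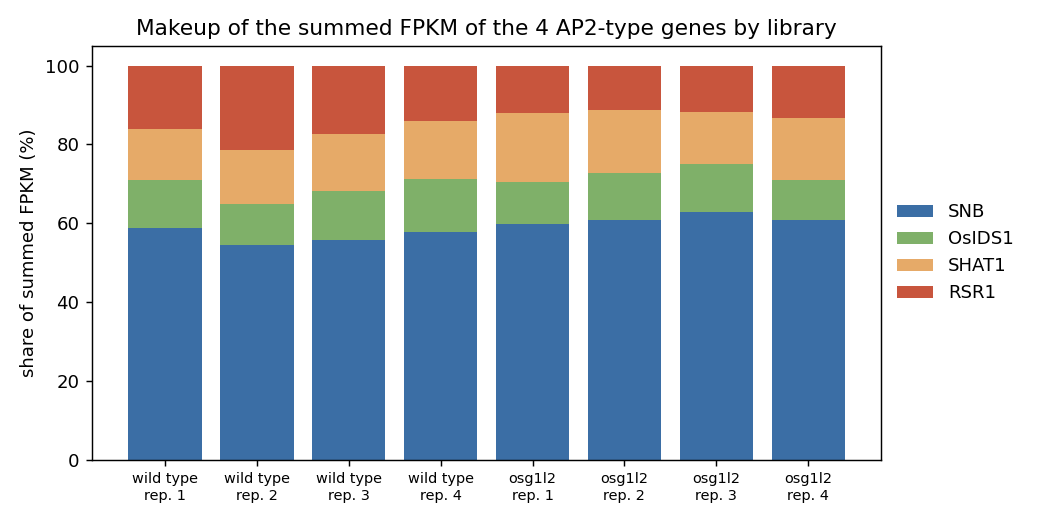
Share of the summed FPKM of the 4 AP2-type genes (vertical axis, %) taken by SNB, OsIDS1, SHAT1 and RSR1 in each of the 8 libraries (bars). SNB takes 54.6% to 62.9% everywhere, and RSR1 takes 14.1% to 21.4% in wild type and 11.2% to 13.3% in osg1l2.

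The level of RSR1 relative to the other genes is described by its FPKM ratio to each of them within a library. The ratio of RSR1 to SNB was 0.274, 0.392, 0.312 and 0.245 in wild type replicates 1 to 4 and 0.201, 0.185, 0.186 and 0.218 in osg1l2 replicates 1 to 4. All wild type ratios lay above all osg1l2 ratios, and the mean log2 ratio was -1.73 in wild type and -2.34 in osg1l2. The ratio of RSR1 to SHAT1 was 1.25 ± 0.248 in wild type and 0.780 ± 0.0986 in osg1l2 (SD, n = 4 each), again without overlap. The ratio to ASP1 was 0.0584 ± 0.00959 in wild type and 0.0395 ± 0.00474 in osg1l2 (SD, n = 4 each), also without overlap. Relative to OsIDS1 the genotypes overlapped, at 1.45 ± 0.434 in wild type and 1.08 ± 0.167 in osg1l2 (SD, n = 4 each). These 4 ratios were chosen after the separation of RSR1 was seen and share its values, so they restate it on a scale free of library scaling and are no separate test.

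**Figure D5:**
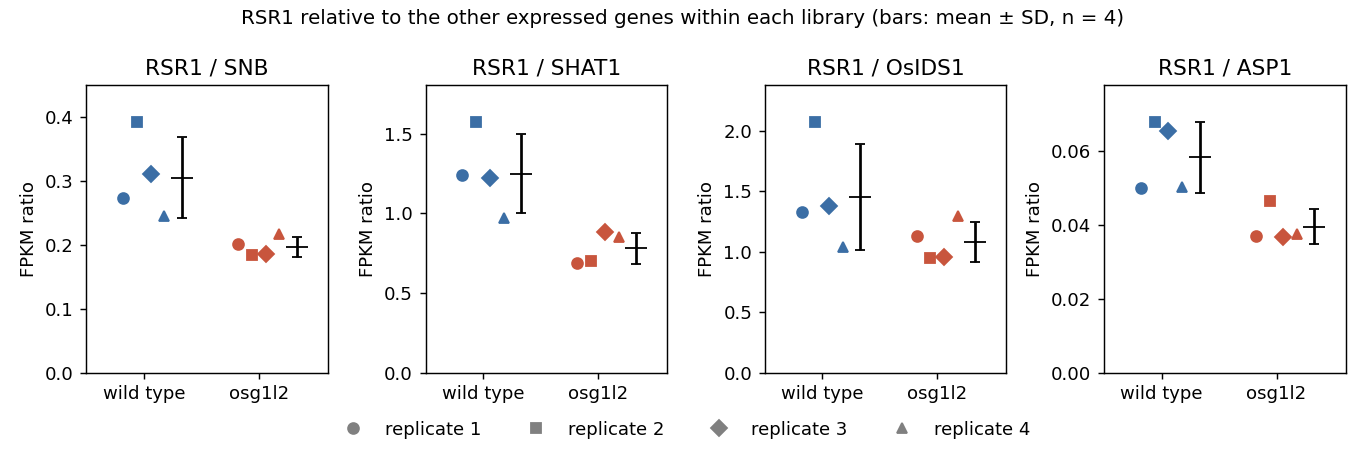
FPKM ratio of RSR1 to SNB, SHAT1, OsIDS1 and ASP1 (vertical axes, each from 0) in each wild type library (blue) and osg1l2 library (red), with a symbol for each replicate number and bars for the mean ± SD of 4 libraries. The genotypes are apart for SNB, SHAT1 and ASP1 and overlap for OsIDS1, where wild type runs from 1.04 to 2.07 and osg1l2 from 0.950 to 1.30.

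The spread between libraries set how small a change could be seen. The residual SD of log2(FPKM + 1) within genotypes was 0.098 for RSR1 and 0.10 for ASP1, larger than in 41.7% and 45.3% of tested genes. It was 0.13 for SNB and for SHAT1, larger than in 62% and 66% of tested genes. For OsIDS1 it was 0.16, and OsIDS1 was more variable on this scale than 77.8% of tested genes. Adding 1 before the log shrinks the spread of low genes more than that of abundant ones, so these SDs are not alike between levels. As a percentage of mean FPKM, the SD of SHAT1 was 13.5% in wild type and 13.2% in osg1l2, and that of SNB 10.6% and 8.31%. Among RSR1 values, wild type libraries varied more (12.5% of the mean) than osg1l2 libraries (4.73%), and for ASP1 the order was the opposite (4.63% and 8.86%). With 4 libraries a genotype, this difference in spread was not tested.

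Other genes with like profiles over the 8 libraries were sought by the largest difference, in any library, between log2(FPKM + 1) values centred on each gene's mean. For SNB the nearest of the tested genes was Os08g0374100, never more than 0.055 away, and 20.6% of tested genes lay within 0.2. For OsIDS1 it was Os11g0661300 at 0.059, with 9.16% within 0.2, and for ASP1 it was Os06g0716700 at 0.043, with 22.9% within 0.2. Profiles within 0.2 of those of SNB and ASP1 were thus common. The RSR1 profile was rarer, with 187 genes (1.02%) within 0.2. Its nearest gene, looked up after the values were seen, was Os03g0186900, never more than 0.078 away, at 35.7 ± 2.54 FPKM in wild type and 28.1 ± 1.55 FPKM in osg1l2 (SD, n = 4 each). The choice by likeness to RSR1 fixed that difference. RSR1 itself averaged 2.63 and 1.74 FPKM, where adding 1 shrinks a change more than at the level of Os03g0186900. The likeness of these 2 genes is therefore one on the log2(FPKM + 1) scale, not of their relative change in FPKM. The sources used here give no names for these identifiers.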

How the data were processed

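RNA was sequenced from 4 wild type and 4 osg1l2 libraries. The authors deposited one FPKM value per gene and library, and a second table that compares the genotypes (1 value for each, a q-value and their log2 fold change). The genotype values have no unit in the deposited header and are treated as a score, and the deposited log2 fold change is listed as a score too, because it holds the code 65535 where a genotype is at 0, as for FZP. Per the submitters' processing notes the build was IRGSP-1.0. The sources used here do not give the aligner, the quantification program or the test behind the deposited q-value. Positive FPKM values down to 4.51e-281 show that they are estimates, so whole reads were not recovered and no count test was run.

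The 18254 genes averaging 1 FPKM or more were compared as log2(FPKM + 1) with limma 3.58.1 in R 4.3.3, with a variance trend, two-sided tests and Benjamini-Hochberg adjustment over all of them, called at an adjusted p under 0.05. The fit was also run on simulated data with normal noise. Every change planted there was larger than that estimated for RSR1 on the same scale, so changes of the size described here were not covered. Shares, ratios and figures used Python 3.11.15, numpy 2.4.6, pandas 2.3.3 and matplotlib 3.10.9. The genes, lists and tests were chosen with earlier results of these data known. The named genes are the 6 chosen ones and, by rule, the gene with the nearest profile to SNB, OsIDS1 and ASP1; FZP was too low for that rule, and the gene nearest to RSR1 was added after its values were seen. The reference gene table (assembly ASM3414082v1) held 1 of the 37859 identifiers and none of the 6, so the lists of pathway genes and tissue markers gave no values, and sequences were not analysed here. Alternatives were other pseudocounts, filters and scalings, a replicate block, library weights, a robust prior and leaving out each library.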

Additional observations from a re-analysis of the deposited data

Results flagged for a closer look

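Of 32 groups of 4 values examined, 3 held a library whose gap to the nearest other, relative to the group's range, exceeded Dixon's critical value. Chance alone flags a fraction of about 0.05 of groups of independent values, and these groups share libraries. FZP in wild type replicate 1 was at 0.00687 FPKM, with the other wild type libraries listed at 0. Beside such zeros any value above 0 would be flagged, so the fraction of about 0.05 does not apply to FZP. The ratio of RSR1 to ASP1 in osg1l2 replicate 2 was 0.0466, against 0.0368 to 0.0376 in the other osg1l2 libraries. That library had the lowest ASP1 level of all, 38.8 FPKM. Its RSR1 level, 1.81 FPKM, was the highest of the osg1l2 libraries, barely above that of replicate 4, also 1.81 FPKM when rounded. The second principal component of wild type replicate 2 was -28.4.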

How the results depend on the processing

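The count of 1 called gene among the 5 tested, RSR1, became 0 in limma with no filter on low values and with the replicate block, where RSR1 had an unadjusted p under 0.05 each time. It was also 0 at a mean of at least 5 FPKM, where RSR1 was not tested and neither SNB nor ASP1 reached an unadjusted p under 0.05. The adjusted p of RSR1 was 0.11 with the replicate block, with the same log2 fold change of -0.40. No shared effect of replicate number was seen over all tested genes. Same-numbered libraries deviated from their genotype means with correlations of 0.069, -0.017, -0.091 and -0.12. No wild type library was closest to the osg1l2 library of its number. These correlations cannot show whether libraries were handled in numbered pairs, which the sources used here do not say. Without single libraries there were 0 or 1 called genes, with RSR1 kept in 2 of 8 fits. Over all 16 alternatives that tested it, the limma adjusted p of RSR1 ran from 0.025 to 0.11 and its log2 fold change from -0.56 to -0.36. The cause of the lost calls was not tested. Among all tested genes the 352 calls became 153 at a mean of at least 5 FPKM, where fewer genes were tested, and 152 with the replicate block. They rose to 1097 with library quality weights and to 826 (4.53% of tested genes) without wild type replicate 2. Leaving out any other single library gave 155 to 240 calls. The shift of the median gene under rescaling was from -0.037 to -0.0022 (median of ratios) or -0.0033 (quantile). No call was made for SNB, OsIDS1, SHAT1 or ASP1 under any of these alternatives. The sign of 2 changes near 0 turned: ASP1 to 0.0061 with median-of-ratios rescaling and 0.014 with quantile normalization, and between -0.076 and 0.025 with a library left out, and SNB to -0.020 with library quality weights, and between -0.051 and 0.051 with a library left out. Without single libraries OsIDS1 ran from -0.21 to -0.074 and SHAT1 from 0.0040 to 0.10. FZP entered the fit only without a filter, and was not called there (limma adjusted p = 0.77); at 0 in 7 of 8 libraries that value says nothing of its change. The limits set by depth could not be given, since the files hold no depth.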

Other observations

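The tested genes on either side of RSR1 in identifier order did not pass the test. The one before had a log2 fold change of -0.17 (limma adjusted p = 0.22) and the one after -0.12 (limma adjusted p = 0.89). Of the 12 tested genes that flank the 6 genes, 0 passed the test in limma and 3 had an unadjusted p under 0.05, against 1.93% and 19.5% of all tested genes, so these counts are near the background. Identifier order follows the chromosome, and distances between genes were not analysed here.

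The ratio of SNB to OsIDS1, 2 AP2 factors that act together in the spikelet, was 4.70 ± 0.454 in wild type and 5.46 ± 0.399 in osg1l2 (SD, n = 4 each; exact two-sided permutation p = 0.0857), with overlapping values. The ratio of OsIDS1 to SHAT1 was 0.875 ± 0.0796 and 0.731 ± 0.139 (SD, n = 4 each; exact permutation p = 0.114). These were looked at among 10 pairs of expressed genes, after the values were seen and without adjustment.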
